A study of Homo sapiens with 4 samples.

Results

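The 9 genes described here encode factors of nonsense-mediated mRNA decay: UPF1, UPF2, UPF3A, UPF3B, SMG1, SMG5, SMG6, SMG8 and SMG9. They were picked because UPF3A had one of the strongest CHAF1A peaks shared by both conditions, so the group was chosen by the fold enrichment and −log10 q of UPF3A peaks, which are given below as a description with no test. They are 9 of the 20037 protein-coding genes of the RefSeq GRCh38.p14 gene table, and every peak from 5 kb before to 5 kb past each gene was taken. CUT&Tag was used to map CHAF1A, the largest protein of the CAF-1 complex that loads histones onto new DNA, an assay in which an antibody guides a transposase to its target and the cut fragments are sequenced. The cells were RBE, an established human line of intrahepatic cholangiocarcinoma. The groups were RBE cells given siRNA against CHAF1A (si-CHAF1A, 2 samples) and RBE cells given control siRNA (si-Ctrl, 2 samples), both collected 48 hours after transfection, and the labels name no other difference. Each group is represented by 1 deposited peak list that does not keep its 2 samples apart. The conditions are therefore described side by side, without replicate spread and without p-values. The lists were matched to the groups by names that fit the sample titles only in part. The extent of the CHAF1A knockdown was not measured by these data.

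Nonsense-mediated decay destroys mRNAs on which translation stops too early, and it also sets the level of many normal mRNAs. UPF1 is the RNA helicase at its centre. UPF2 and the paralogues UPF3A and UPF3B connect UPF1 to the exon junction complex that splicing leaves on an mRNA. The kinase SMG1, in a complex with its subunits SMG8 and SMG9, phosphorylates UPF1. Phosphorylated UPF1 recruits SMG6, an endonuclease that cuts the mRNA, and SMG5, which brings in deadenylation and decapping factors. Several of these mRNAs are themselves targets of the pathway in human cells, which forms a feedback loop.

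The strongest CHAF1A peaks of the group sat on the 5′ ends of UPF3A, SMG5 and UPF3B in both lists, and these were the 3 members with the letters TCTCGCGA in a promoter window. These letters and their overlap partner CTCGCGAG are parts of the palindrome TCTCGCGAGA, known as the CGCG element and as a binding sequence of the protein BANP. The windows of these 3 genes are printed with the letters in capitals, beside those of UPF1 and SMG9, which have neither motif and weaker peaks. All are RefSeq sequences of GRCh38.p14, 300 bases long, from 250 bases before a start to 50 bases from it, written 5′ to 3′ on the strand of the gene. UPF3A is shown at its first start (chr13:114281351-114281650, plus strand) and at its second start (chr13:114281661-114281960, plus strand), UPF3B at chrX:119852914-119853213 (minus strand), SMG5 at chr1:156282776-156283075 (minus strand), UPF1 at chr19:18831709-18832008 (plus strand) and SMG9 at chr19:43754913-43755212 (minus strand).
UPF3A, first start: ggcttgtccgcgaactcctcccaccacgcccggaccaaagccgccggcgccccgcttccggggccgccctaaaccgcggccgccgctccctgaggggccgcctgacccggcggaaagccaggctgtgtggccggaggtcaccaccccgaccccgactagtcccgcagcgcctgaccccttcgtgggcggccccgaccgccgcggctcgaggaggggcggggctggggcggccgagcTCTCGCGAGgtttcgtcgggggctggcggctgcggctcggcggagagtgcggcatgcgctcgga
UPF3A, second start: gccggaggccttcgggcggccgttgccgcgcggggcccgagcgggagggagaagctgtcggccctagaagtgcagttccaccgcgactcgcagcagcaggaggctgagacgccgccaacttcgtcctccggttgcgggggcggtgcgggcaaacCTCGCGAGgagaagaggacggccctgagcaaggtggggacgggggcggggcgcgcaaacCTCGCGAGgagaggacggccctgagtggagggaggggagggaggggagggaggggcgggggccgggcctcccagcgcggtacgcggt
UPF3B: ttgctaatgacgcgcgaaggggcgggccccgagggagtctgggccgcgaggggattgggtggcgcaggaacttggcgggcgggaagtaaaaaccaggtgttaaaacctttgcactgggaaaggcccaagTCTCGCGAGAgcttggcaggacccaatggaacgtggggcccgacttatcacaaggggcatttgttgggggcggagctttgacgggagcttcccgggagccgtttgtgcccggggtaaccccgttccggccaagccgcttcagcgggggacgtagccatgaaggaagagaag
SMG5: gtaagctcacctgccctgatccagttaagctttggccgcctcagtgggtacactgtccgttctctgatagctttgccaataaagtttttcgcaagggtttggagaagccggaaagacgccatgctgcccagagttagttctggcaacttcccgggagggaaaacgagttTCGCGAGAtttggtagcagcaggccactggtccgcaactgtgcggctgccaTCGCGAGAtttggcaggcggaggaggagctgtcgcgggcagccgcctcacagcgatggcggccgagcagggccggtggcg
UPF1: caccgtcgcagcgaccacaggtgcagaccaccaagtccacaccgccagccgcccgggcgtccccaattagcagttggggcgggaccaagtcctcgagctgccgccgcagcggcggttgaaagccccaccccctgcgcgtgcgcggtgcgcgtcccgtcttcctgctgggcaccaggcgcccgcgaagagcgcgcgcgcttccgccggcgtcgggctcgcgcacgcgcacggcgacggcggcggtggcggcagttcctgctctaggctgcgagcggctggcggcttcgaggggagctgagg
SMG9: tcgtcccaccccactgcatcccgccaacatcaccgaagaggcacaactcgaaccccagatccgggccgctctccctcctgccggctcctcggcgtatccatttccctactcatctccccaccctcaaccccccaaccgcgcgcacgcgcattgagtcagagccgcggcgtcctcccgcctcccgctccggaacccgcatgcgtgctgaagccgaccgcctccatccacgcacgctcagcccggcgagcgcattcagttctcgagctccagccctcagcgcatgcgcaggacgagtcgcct

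UPF3B held the whole palindrome once, which counts as 2 matches of TCTCGCGA because the letters were searched on both strands. SMG5 held TCTCGCGA at 2 places on the opposite strand, read as TCGCGAGA in the line above. UPF3A held TCTCGCGAG once at its first start and CTCGCGAG at 2 places at its second start. The windows with a motif held 43 and 36 CG pairs (UPF3A), 24 (UPF3B) and 22 (SMG5), and the windows without one 45 (UPF1) and 34 (SMG9). A match is a description of letters, not of a bound site.

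The deposited lists held 97653 si-CHAF1A peaks and 76313 si-Ctrl peaks on the main chromosomes. The fold enrichment and q of a peak were computed by the authors, relative to the background of the list it comes from. From the fold and p of each peak, the pileup (fragments stacked at the summit) and its local background were solved here. The background of the whole genome came out at 8.49 fragments for the si-CHAF1A list and 6.34 for the si-Ctrl list, a ratio of 1.34, so the lists differ in depth. A higher −log10 q or a higher pileup in the si-CHAF1A list is therefore not read as a difference in binding. The total reads per sample were not used here. At either end of 5 bile duct genes, 4 had a peak in the si-CHAF1A list and 5 in the si-Ctrl list, with KRT7 the gene that lacked one in the si-CHAF1A list. Of 4 hepatocyte genes 1, SERPINA1, had a peak in each list. Over all protein-coding genes with a RefSeq start, 64.9% (si-CHAF1A) and 62.0% (si-Ctrl) had a peak within 1 kb of a start. The share of all genes at either end is not given here. Peak lists hold no expression, so these counts say little about the cell type.

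All 9 genes had at least 1 peak in their window in the si-CHAF1A list and all 9 in the si-Ctrl list. A peak in such a window was the rule rather than the exception, being present for 85.0% of all protein-coding genes in the si-CHAF1A list, 82.3% in the si-Ctrl list and 79.5% in both. Among 11014 protein-coding genes of 20 kb or more, which 8 of the 9 members are, the shares were 91.2% in the si-CHAF1A list and 89.7% in the si-Ctrl list. Having a peak thus does not set these genes apart. With only peaks of −log10 q of at least 10, 9 members kept a window peak in the si-CHAF1A list and 7 in the si-Ctrl list, where UPF1 and SMG8 had none. A RefSeq start was at hand for 8 members, the exception being SMG8, and a peak lay within 1 kb of a start in 8 of these 8 in each list, or in 7, all except UPF1, at that stricter limit. The share of all genes at that stricter limit is not given here, so the member counts there have no comparison. Without that limit, the share over all 15843 genes with a RefSeq start was 64.9% in the si-CHAF1A list and 62.0% in the si-Ctrl list. The median −log10 q of the strongest 5′-end peak over the 8 members was 70.2 in the si-CHAF1A list and 134 in the si-Ctrl list, and over all those genes it was 11.7 in the si-CHAF1A list and 12.1 in the si-Ctrl list. Because UPF3A chose the group, these medians are a description.

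UPF3A (chromosome 13, 114281601 to 114305817, plus strand), the paralogue of UPF3B and the weaker of the pair in decay, carried the strongest peak of the group. In the si-CHAF1A list the peak at its 5′ end ran from 114280990 to 114282596 with a −log10 q of 2854 and a fold enrichment of 18.7. In the si-Ctrl list it ran from 114281145 to 114282596 with a fold of 18.7 and a −log10 q of 1656. The 2 folds were equal to 3 digits. The pileup was 3310 fragments in the si-CHAF1A list (95% exact Poisson interval 3198 to 3425) and 1918 in the si-Ctrl list (1833 to 2006), and such intervals cover counting error only. The local background solved for the peak was 176 fragments in the si-CHAF1A list and 102 in the si-Ctrl list. Both were far above the genome background of their list. How much of this local background came from the fragments of the peak itself was not tested. Ranked by −log10 q of the strongest 5′-end peak, UPF3A was number 4 of 15843 genes in the si-CHAF1A list and number 5 in the si-Ctrl list.

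The UPF3A summits were 1 base apart, at 114281835 in the si-CHAF1A list and 114281836 in the si-Ctrl list. They lay not at the first RefSeq start (114281601) but 76 bases and 75 bases before the second one (114281911), in the window that holds CTCGCGAG at 2 places. The nearest CTCGCGAG was centred 16.5 bases from the si-CHAF1A summit and 17.5 bases from the si-Ctrl summit, whereas the TCTCGCGA at the first start was 244 bases from the si-CHAF1A summit and 246 bases from the si-Ctrl summit. A non-coding RNA gene, LOC105370384, starts 24 bases from the first UPF3A start on the other strand, inside the same peak. The peak therefore cannot be given to UPF3A alone.

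UPF3A held 6 peaks in each list, of which 5 si-CHAF1A peaks and 6 si-Ctrl peaks overlapped a peak of the other list by at least 1 base. After the 5′ end, the strongest lay inside the gene about 13 kb past the third start. Its summit was 12977 bases past that start in the si-CHAF1A list (fold 6.68, −log10 q 74.2) and 12943 bases past it in the si-Ctrl list (fold 5.79, −log10 q 34.1). A further internal peak had a fold of 4.12 and a −log10 q of 38.4 in the si-CHAF1A list (114288188 to 114289098), and a fold of 3.78 and a −log10 q of 17.6 in the si-Ctrl list (114288348 to 114288715). The other 3 peaks of the si-CHAF1A list had a −log10 q between 5.38 and 16.0, and the other 3 of the si-Ctrl list between 6.49 and 9.55. The internal peaks were thus far weaker than the 5′-end peak in each list.

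UPF3B (chromosome X, 119805311 to 119852963, minus strand), which binds UPF2 and the exon junction complex, had 1 peak in each list, and it lay on the 5′ end. It ran from 119852371 to 119853412 in the si-CHAF1A list, with a fold of 15, a −log10 q of 572 and a pileup of 737 fragments (684.7 to 792.2). In the si-Ctrl list it ran from 119852531 to 119853314, with a fold of 16.9, a −log10 q of 422 and a pileup of 509 fragments (465.7 to 555.2). Both summits were at base 119853108, 145 bases before the start and 27.5 bases from the centre of TCTCGCGA. UPF3B ranked number 203 in the si-CHAF1A list and number 196 in the si-Ctrl list. The rest of its 47.7 kb had no peak, which made it the sparsest gene of the group at 1.73 peaks per 100 kb in each list.

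UPF2 (chromosome 10, 11920022 to 12043170, minus strand), the adaptor between UPF1 and the UPF3 proteins, had a peak of middle strength on its 5′ end. The si-CHAF1A peak had a fold of 6.23, a −log10 q of 53.1 and a pileup of 122 fragments (101.3 to 145.7), with its summit 175 bases past the start. The si-Ctrl peak had a fold of 9.83, a −log10 q of 111 and a pileup of 180 fragments (154.7 to 208.3), with its summit 30 bases before the start. Here the values were lower in the deeper si-CHAF1A list, and the si-CHAF1A peak was the broader one, at 1604 bases against 839 bases in the si-Ctrl list. The other 5 peaks of each list were weak, with a −log10 q between 6.29 and 10.9 in the si-CHAF1A list and between 4.70 and 12.0 in the si-Ctrl list. Of all 6 UPF2 peaks in each list, 3 overlapped a peak of the other.

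UPF1 (chromosome 19, 18831959 to 18868230, plus strand), the helicase on which the pathway depends, had the weakest 5′ end of the 8. In the si-CHAF1A list the only peak there had its summit 681 bases past the start, with a fold of 3.21, a −log10 q of 9.08 and a pileup of 45 fragments (32.82 to 60.21). In the si-Ctrl list the strongest had its summit 9 bases past the start, with a fold of 3.38, a −log10 q of 7.48 and a pileup of 34 fragments (23.55 to 47.51), and no si-CHAF1A peak overlapped it. A second si-Ctrl peak, 887 bases past the start (fold 3.12, −log10 q 6.20), overlapped the si-CHAF1A peak. UPF1 ranked number 8764 of the 10283 genes with a 5′-end peak in the si-CHAF1A list and number 9050 of 9819 in the si-Ctrl list. Its strongest peak in the si-CHAF1A list was instead near the 3′ end, with its summit 34227 bases past the start, a fold of 2.89 and a −log10 q of 12.2, and had no si-Ctrl counterpart. The 2 remaining si-CHAF1A peaks had a −log10 q of 4.82 and 6.21, and the remaining si-Ctrl peak 4.21. No UPF1 peak thus stood out, the median −log10 q being 8.50 over the whole si-CHAF1A list and 9.82 over the whole si-Ctrl list.

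**Figure D1:**
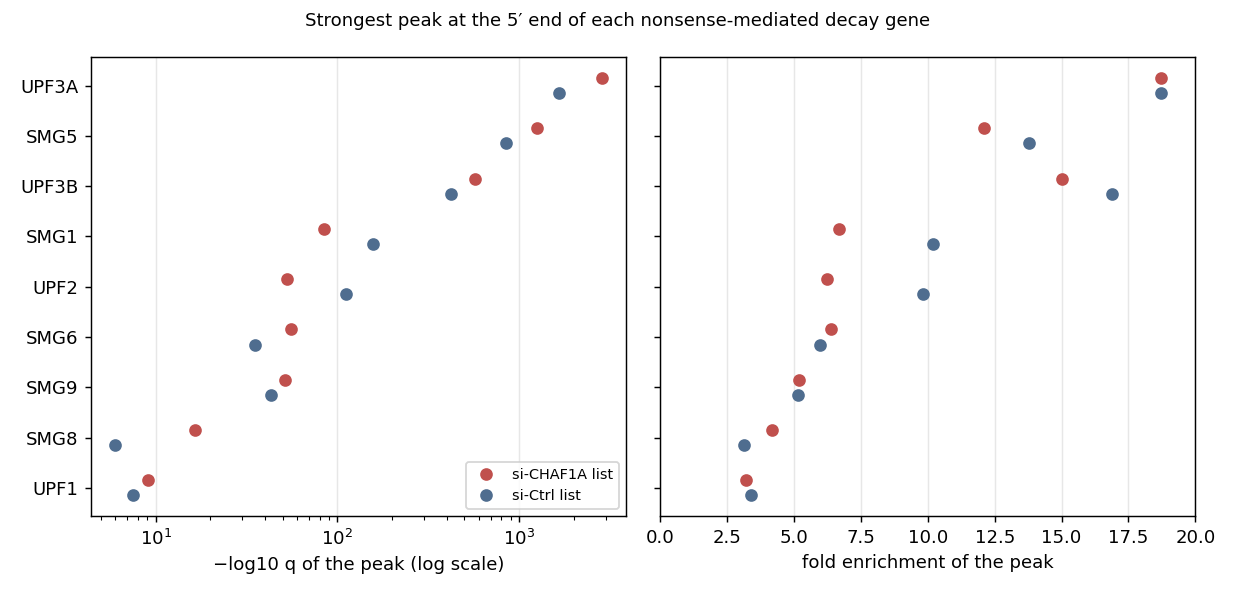
Strength of the strongest 5′-end peak of each of the 9 genes (for SMG8, its only peak), as −log10 q on a log scale (left) and as fold enrichment (right), with si-CHAF1A in red and si-Ctrl in blue, 1 point per list. UPF3A, SMG5 and UPF3B stand above the other members in both lists and on both scales, from a fold of 12.1 upwards, while the other members reach at most 10.2.

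SMG5 (chromosome 1, 156249224 to 156291516, minus strand), which links phosphorylated UPF1 to deadenylation and decapping, had the second strongest peak of the group. Its si-CHAF1A peak ran from 156281837 to 156283442 with a fold of 12.1, a −log10 q of 1255 and a pileup of 1828 fragments (1745 to 1914). Its si-Ctrl peak ran from 156281936 to 156283426 with a fold of 13.8, a −log10 q of 844 and a pileup of 1141 fragments (1076 to 1209). Both summits were at base 156282877, 52 bases before the inner RefSeq start (156282825) and 25.5 bases from the centre of TCTCGCGA. SMG5 ranked number 45 in the si-CHAF1A list and number 42 in the si-Ctrl list. The start of TMEM79, a membrane protein gene read the other way, lies 107 bases from the SMG5 start within the same peak, so the signal cannot be given to SMG5 alone. The outer SMG5 start (156291516), which lacks both motifs, had a peak with a fold of 3.97 and a −log10 q of 58.7 in the si-CHAF1A list and of 3.41 and 21.5 in the si-Ctrl list. The 2 starts of the same gene thus differed by a factor of more than 3 in fold within each list.

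SMG5 also had the densest set of peaks, 12 in the si-CHAF1A list and 11 in the si-Ctrl list, or 22.9 and 21.0 per 100 kb of window. Of these, 8 si-CHAF1A peaks and 10 si-Ctrl peaks overlapped the other list. An internal peak about 20 kb past the inner start was the strongest of the rest, with a fold of 3.71 and a −log10 q of 44.1 in the si-CHAF1A list, and 3.76 and 26.6 in the si-Ctrl list. The other peaks had folds of at most 2.65 in the si-CHAF1A list and 2.97 in the si-Ctrl list. Some of them lay at the starts of other genes, PAQR6, TMEM79 and GLMP. The local background solved for the si-CHAF1A peaks outside the 5′ ends was high here, from 34.6 to 145 fragments, against 8.49 for the genome.

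SMG6 (chromosome 17, 2059839 to 2303785, minus strand), the endonuclease of the pathway and the longest gene of the group at 244 kb, had a peak of middle strength on its outer start. The si-CHAF1A peak had a fold of 6.37, a −log10 q of 55.9 and a pileup of 126 fragments (105.0 to 150.0). The si-Ctrl peak had a fold of 5.96, a −log10 q of 35.1 and a pileup of 83 fragments (66.11 to 102.9). The start of SRR, the serine racemase gene, is 158 bases from that of SMG6 on the other strand. The si-CHAF1A summit was 1 base from the SRR start, and the si-Ctrl summit was 152 bases inside SMG6. SMG6 ranked number 2549 in the si-CHAF1A list and number 4421 in the si-Ctrl list. The 3 inner starts of SMG6 had no peak within 1 kb in either list.

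The body of SMG6 held a peak that was stronger in the si-Ctrl list. In the si-CHAF1A list a peak from 2240585 to 2240759 had a fold of 2.90, a −log10 q of 4.66 and a pileup of 27 fragments (17.79 to 39.28). In the si-Ctrl list the peak that overlaps it, from 2240248 to 2240759, had a fold of 7.37, a −log10 q of 29.6 and a pileup of 57 fragments (43.17 to 73.85). The higher pileup thus belonged to the shallower list, and the 2 counting intervals did not overlap. The summits, at 2240733 in the si-CHAF1A list and 2240310 in the si-Ctrl list, were not the same, so the 2 pileups do not describe the same base. This peak was singled out after its values had been seen. In all, SMG6 had 12 si-CHAF1A peaks and 9 si-Ctrl peaks, of which 5 in each list overlapped the other. Apart from the 2 places described, their −log10 q was at most 11.0 in the si-CHAF1A list and 14.0 in the si-Ctrl list.

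SMG1 (chromosome 16, 18804860 to 18926408, minus strand), the kinase that phosphorylates UPF1, had a 5′-end peak with a fold of 6.70, a −log10 q of 84.4 and a pileup of 183 fragments (157.4 to 211.5) in the si-CHAF1A list. In the si-Ctrl list the fold was 10.2, the −log10 q 157 and the pileup 251 fragments (220.9 to 284.0). As for UPF2, the values were lower in the deeper si-CHAF1A list. The summits were 786 bases apart, 553 bases past the start in the si-CHAF1A list and 233 bases before it in the si-Ctrl list, although the peaks overlapped over most of their length. Another strong peak of the SMG1 window sat past the 3′ end, at the start of ARL6IP1, with a fold of 8.64 and a −log10 q of 147 in the si-CHAF1A list and of 9.38 and 126 in the si-Ctrl list. Its summit was at base 18801760 in both lists. The other 3 peaks of each list had a −log10 q of at most 7.15 in the si-CHAF1A list and 12.5 in the si-Ctrl list.

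SMG9 (chromosome 19, 43727983 to 43754962, minus strand) and SMG8 (chromosome 17, 59210035 to 59215230), the partners of SMG1, differed in strength. The SMG9 peak at the 5′ end had a fold of 5.18, a −log10 q of 51.8 and a pileup of 142 fragments (119.6 to 167.4) in the si-CHAF1A list. In the si-Ctrl list these were 5.14, 43.2 and 119 (98.58 to 142.4). SMG9 thus had nearly the same fold in both lists, and its second peak, about 2.5 kb before the start, also did, with a fold of 2.73 in the si-CHAF1A list and 2.81 in the si-Ctrl list. SMG8 had 1 peak in each list, at its lower gene boundary, with the summit at base 59210050 in both. Its fold was 4.19, its −log10 q 16.4 and its pileup 56 fragments (42.30 to 72.72) in the si-CHAF1A list, against 3.12, 6.00 and 31 (21.06 to 44.00) in the si-Ctrl list. The SMG8 intervals overlapped, and the strand of SMG8 was not used here.

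**Figure D2:**
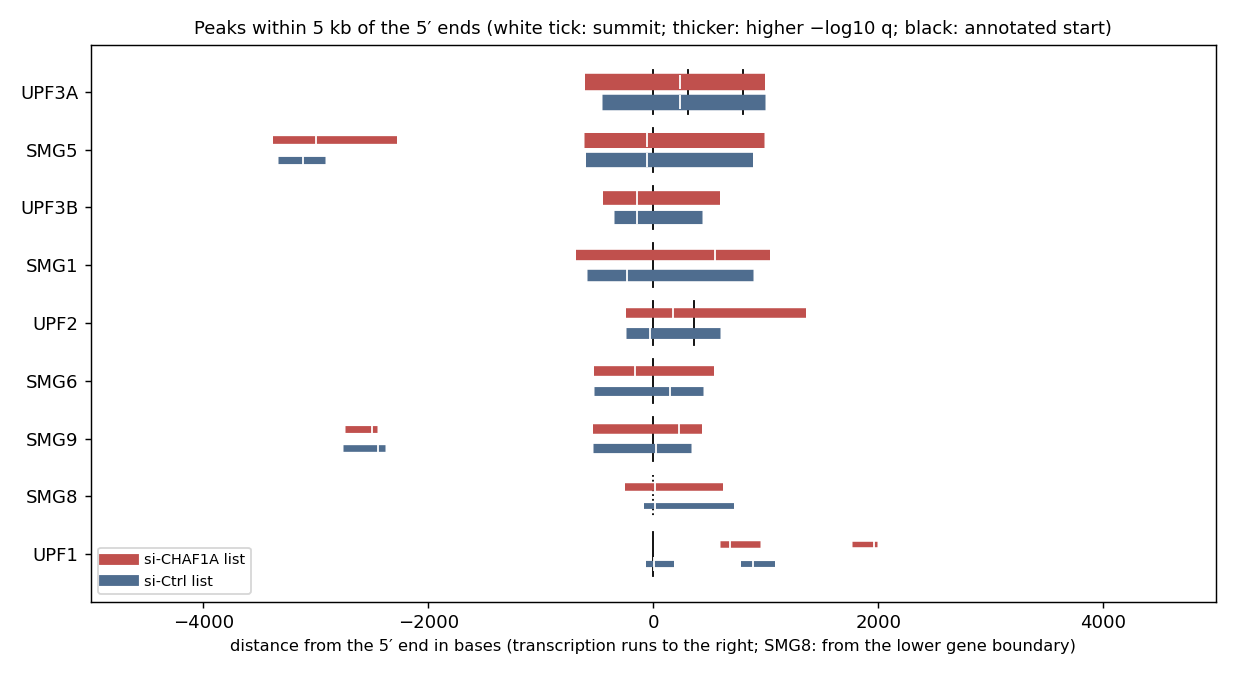
Peaks within 5 kb of the 5′ end of each gene, drawn by distance in bases with transcription to the right (for SMG8, from the lower gene boundary), si-CHAF1A in red above si-Ctrl in blue. Bars span each peak, thicker bars have a higher −log10 q, white ticks are summits and black lines are RefSeq starts. The summits of UPF3A, SMG5 and UPF3B fall within 1 base of each other in the 2 lists, those of SMG1 lie 786 bases apart, and UPF1 has only short, thin bars.

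Over all 9 windows there were 49 si-CHAF1A peaks and 44 si-Ctrl peaks. Of the si-CHAF1A peaks, 29 overlapped a si-Ctrl peak, or 59.2% (95% exact binomial interval 44.2 to 73.0), and of the si-Ctrl peaks, 32 overlapped a si-CHAF1A peak, or 72.7% (57.2 to 85.0). Over the whole lists the shares were 47.5% of si-CHAF1A peaks and 61.9% of si-Ctrl peaks, values that lie inside the intervals of the members. Sharing was more frequent at the 5′ ends, where the peaks were also stronger. The median −log10 q there was 58.7 in the si-CHAF1A list and 77.1 in the si-Ctrl list. Elsewhere in the windows it was 9.24 in the si-CHAF1A list and 8.07 in the si-Ctrl list. Position and strength therefore cannot be told apart here. The share over all 5′-end peaks of the lists is not given here. At the 5′ ends all 9 si-CHAF1A peaks and 9 of 10 si-Ctrl peaks were shared, the exception being the UPF1 peak at its start. Elsewhere in the windows 19 of 39 si-CHAF1A peaks (48.7%) and 22 of 33 si-Ctrl peaks (66.7%) were. Of those elsewhere with a −log10 q of at most 15, 11 of 30 si-CHAF1A peaks (36.7%) and 16 of 27 si-Ctrl peaks (59.3%) were shared, where the whole si-CHAF1A list gave 34.4% and the whole si-Ctrl list 49.2% at that strength. The weak peaks of these genes were thus shared about as often as weak peaks in general.

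To set the lists side by side with less weight on depth, each summit pileup was divided by the genome background of its list. For UPF3A this load was 390 in the si-CHAF1A list and 303 in the si-Ctrl list, a ratio of 1.29. For SMG5 it was 215 in the si-CHAF1A list and 180 in the si-Ctrl list, a ratio of 1.20, and for UPF3B it was 86.8 in the si-CHAF1A list and 80.3 in the si-Ctrl list, a ratio of 1.08. SMG6 had a ratio of 1.13 and SMG9 of 0.891. The lowest ratios were those of SMG1, 0.544 (load 21.6 in the si-CHAF1A list and 39.6 in the si-Ctrl list), and UPF2, 0.506 (load 14.4 in the si-CHAF1A list and 28.4 in the si-Ctrl list). UPF1 and SMG8 have no ratio, since the strongest UPF1 peaks did not overlap and SMG8 has no start in the table.

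The ratio of most other genes was below 1. Over 8607 other protein-coding genes with an overlapping strongest pair, the median was 0.84, with 74.2% below 1 and a range from 0.538 at the 5th percentile to 1.26 at the 95th. Of these genes, 96.2% had a lower ratio than UPF3A, 91.9% than SMG5, 87.8% than SMG6, 83.4% than UPF3B and 58.3% than SMG9. At the other end 5.48% had a lower ratio than SMG1 and 3.15% a lower one than UPF2. The ratio of other genes was higher at the highest loads, but did not rise over the whole range of load. Among the 22 other genes within 1.5 times the UPF3A load in the si-Ctrl list, the median was 1.18. Among the 110 such genes for SMG5 it was 1.15, and among the 407 for UPF3B it was 1.03. At the lower loads of SMG1, UPF2, SMG9 and SMG6 it was 0.792, 0.778, 0.796 and 0.814. Beside genes of like load, SMG6 was higher than 92.1%, UPF3A than 86.4%, SMG9 than 67.0%, SMG5 than 64.5%, UPF3B than 60.2%, SMG1 than 10.7% and UPF2 than 5.05%. On that scale SMG6, which lacks TCTCGCGA, was the highest member, and UPF3A, which holds it, came next. The 2 summits of SMG6 were 311 bases apart, those of SMG1 786, those of SMG9 206 and those of UPF2 205. Their ratios thus do not describe the same base, whereas the summits of UPF3A, SMG5 and UPF3B were at most 1 base apart. The genes of like load were not matched for the motif. With 1 list per condition and no spread between samples, none of these ratios is shown to differ from another.

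**Figure D3:**
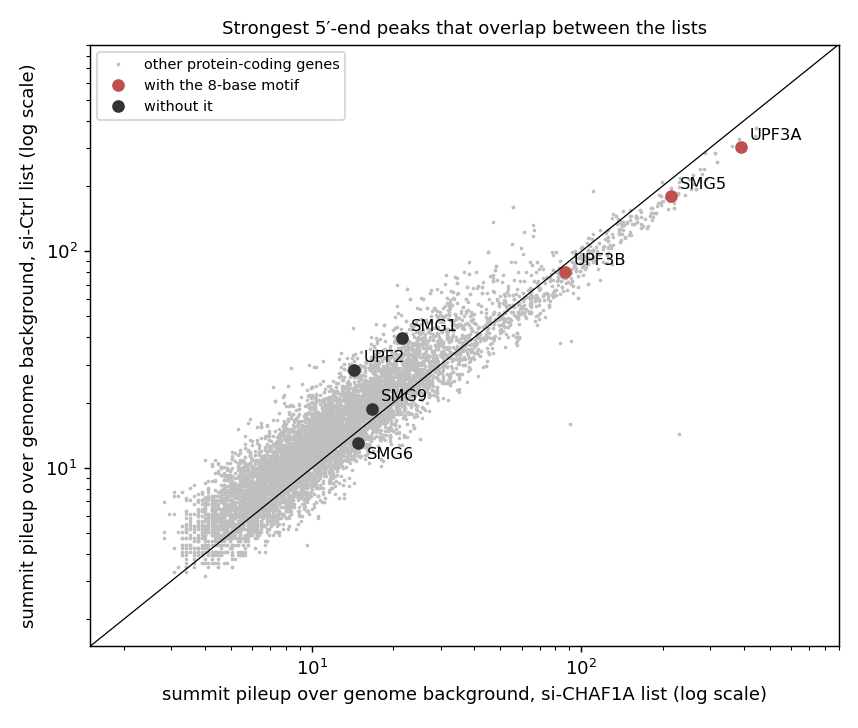
Summit pileup divided by the genome background of its list, si-CHAF1A on the horizontal axis and si-Ctrl on the vertical axis, both log scales, 1 point per gene whose strongest 5′-end peaks overlap (grey, 8607 other genes). The diagonal marks equal values. UPF3A, SMG5 and UPF3B (red, with TCTCGCGA) lie just below the diagonal at high load, where the si-CHAF1A value is the higher one. SMG6 (black, without TCTCGCGA) also lies just below the diagonal, at a lower load. UPF2, SMG1 and SMG9 (black) lie above it.

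The motif shared by UPF3A, SMG5 and UPF3B was noticed in their sequences and then counted in all other genes. TCTCGCGA, searched on both strands in every start window, was present in 3 of 8 members and in 320 of 15835 other protein-coding genes (2.02%). CTCGCGAG, which overlaps it by 7 letters in the palindrome, was present in 2 members, UPF3A and UPF3B, and in 283 other genes (1.79%). Among the other genes, those with TCTCGCGA had a median −log10 q of 474 at the 5′ end in the si-CHAF1A list and 333 in the si-Ctrl list. Those without it had 11.3 in the si-CHAF1A list and 11.4 in the si-Ctrl list. A 5′-end peak was present in 94.4% of genes with the motif and 64.3% of those without it in the si-CHAF1A list, and in 93.1% and 61.3% in the si-Ctrl list. Among genes with at least 20 CG in a window the medians were 477 (si-CHAF1A) and 334 (si-Ctrl) for the 289 with the motif, against 20.3 (si-CHAF1A) and 22.6 (si-Ctrl) for the 9446 without it. CG content was not matched between these sets, and its part in the difference was not tested.

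The share of other genes with the motif fell with rank in each list. Of the 100 other genes with the strongest 5′-end peaks, 74.0% held TCTCGCGA in the si-CHAF1A list (95% exact binomial interval 64.3 to 82.3) and 71.0% in the si-Ctrl list (61.1 to 79.6). Between ranks 201 and 500 the share was 27.0% in the si-CHAF1A list and 23.0% in the si-Ctrl list, and between 1001 and 2000 it was 1.10% in the si-CHAF1A list and 1.90% in the si-Ctrl list. Among genes with no 5′-end peak it was 0.324% in the si-CHAF1A list and 0.365% in the si-Ctrl list. Neighbouring genes can share a peak, and with each peak counted once the share among the strongest 100 was 73.0% in the si-CHAF1A list and 71.0% in the si-Ctrl list. UPF3A, SMG5 and UPF3B were numbers 4, 45 and 203 in the si-CHAF1A list, and numbers 5, 42 and 196 in the si-Ctrl list. The other 5 members with a start were at number 1625 or further down in the si-CHAF1A list and at number 775 (SMG1) or further down in the si-Ctrl list, where the share between ranks 501 and 1000 was 7.60%.

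**Figure D4:**
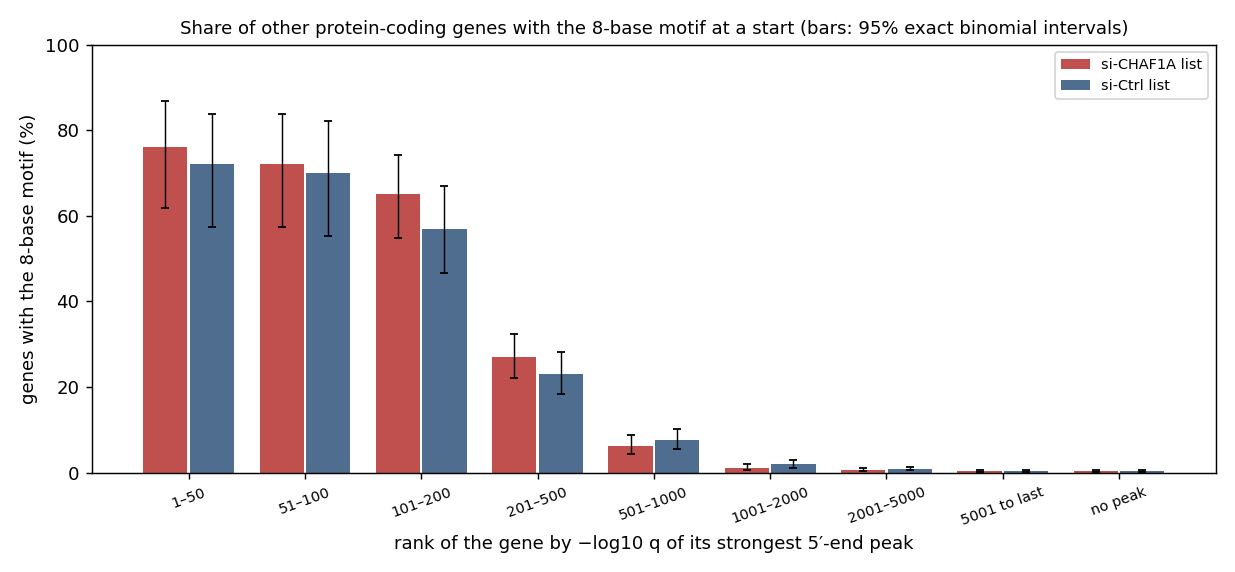
Share of other protein-coding genes with TCTCGCGA in a start window (percent), by rank of the strongest 5′-end peak in the si-CHAF1A list (red) and the si-Ctrl list (blue), with 95% exact binomial intervals. The share is 76.0% (si-CHAF1A) and 72.0% (si-Ctrl) among ranks 1 to 50 and falls under 2% past rank 1000.

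The summits of other genes with TCTCGCGA lay close to it. The median distance from the strongest summit to the nearest motif centre was 45 bases in 302 genes of the si-CHAF1A list and 44 bases in 298 genes of the si-Ctrl list. Within 50 bases were 55.3% of the si-CHAF1A summits and 55.0% of the si-Ctrl summits. For CCGGAAG, the letters of an ETS site, the median distance was 147 bases in the si-CHAF1A list and 108 in the si-Ctrl list. For GGGCGG, an Sp1 site, it was 102 in the si-CHAF1A list and 72.5 in the si-Ctrl list. For CCAAT it was 147 in the si-CHAF1A list and 109 in the si-Ctrl list. The share of summits within 50 bases was 35.3% (si-CHAF1A) and 42.2% (si-Ctrl) for GGGCGG. It was 24.9% (si-CHAF1A) and 30.5% (si-Ctrl) for CCAAT, and 20.1% (si-CHAF1A) and 25.6% (si-Ctrl) for CCGGAAG. The median −log10 q at the 5′ end in the si-CHAF1A list was 23.4 with CCGGAAG, 18.6 with GGGCGG and 474 with TCTCGCGA. Peak strength was not matched, and its part in the distances was not tested. UPF3B at 27.5 bases and SMG5 at 25.5 bases were thus nearer than the median for TCTCGCGA, and UPF3A, at 244 bases in the si-CHAF1A list and 246 bases in the si-Ctrl list, was farther.

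The other genes with the motif also lay on the higher side in the ratio of loads. The median ratio of si-CHAF1A to si-Ctrl load was 1.15 over 297 other genes with TCTCGCGA, 85.2% of which were above 1. It was 0.832 over 8310 without it, 23.7% of which were above 1. Load differed between these sets, with a median si-Ctrl load of 78.4 with the motif and 13.1 without it. Among genes with a si-Ctrl load of at least 50 it still differed, at 102 with the motif and 65.5 without it. There the median ratio was 1.15 over 202 genes with the motif (92.1% above 1) and 0.943 over 385 without it (41.0% above 1). UPF3A at 1.29 and SMG5 at 1.20 were above the median of genes with the motif, and UPF3B at 1.08 was below it.

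None of the 8 other motifs searched on both strands was in UPF3A, SMG5 and UPF3B and in no other member. GGGCGG was in 7 of 8 members, all except SMG9, and in 64.3% of other genes. CCAAT was in 4 members, UPF1, UPF2, UPF3B and SMG5, and in 42.1% of other genes. CACGTG, the E-box, was in UPF2 and SMG6 and in 10.9% of other genes, and CCGGAAG was in UPF3A and in 16.5%. In SMG6 the CACGTG was at an inner start (2266185), which had no peak within 1 kb in either list. GCGCATGCG, an NRF1 site, was in SMG9, where overlapping matches on both strands gave a count of 2, and in 3.10% of other genes. TATAAA, TGACGTCA and AAGATGG were in 0 of the 8 members and in 12.4%, 3.00% and 7.90% of other genes. A missing match says only that the letters are not in these windows.

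The genes with 5′-end ranks most like those of UPF3A over the 2 lists were RC3H2, MED1 and TMEM18, with summed rank differences of 2, 3 and 5. RC3H2, an RNA-binding ubiquitin ligase, had a −log10 q of 2915 in the si-CHAF1A list and 1730 in the si-Ctrl list. MED1, a subunit of Mediator, had 2610 in the si-CHAF1A list and 1782 in the si-Ctrl list. TMEM18, a transmembrane protein gene, had 2207 in the si-CHAF1A list and 1460 in the si-Ctrl list. Tied at a difference of 7 were 6 genes in 3 pairs with equal values, FGFR1OP2 with INTS13, NKTR with SEC22C, and ATP5PB with WDR77. Of these 9 genes, RC3H2, MED1, FGFR1OP2, ATP5PB and WDR77 held TCTCGCGA.

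The wider pathway was described from 5 lists of 56 genes in all, of which 43 had a start in the table. A 5′-end peak was present in 41 of the 43 (95.3%) in each list, beside 64.9% of all genes in the si-CHAF1A list and 62.0% in the si-Ctrl list. The 2 without one, GSPT2 and ATF3, lacked it in both lists. The median −log10 q over the 43 was 34.0 in the si-CHAF1A list and 38.9 in the si-Ctrl list, and 0 of the 43 held TCTCGCGA. The exon junction complex, the mark that UPF3 proteins read, had a peak at 7 of 7 genes with medians of 86.4 (si-CHAF1A) and 92.4 (si-Ctrl). Its strongest were EIF4A3, the RNA helicase that anchors the complex, with 571 in the si-CHAF1A list and 425 in the si-Ctrl list, then MAGOHB with 237 in the si-CHAF1A list and 179 in the si-Ctrl list, and RBM8A with 211 in the si-CHAF1A list and 184 in the si-Ctrl list, both core proteins of the complex. EIF4A3 thus reached the strength of UPF3B, numbers 204 and 203 in the si-CHAF1A list, without the motif.

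In the other lists the median −log10 q was lower. It ran from 27.4 to 33.0 in the si-CHAF1A list and from 33.9 to 37.8 in the si-Ctrl list. Single genes overlapped, and the weakest exon junction complex gene had 6.86 in the si-CHAF1A list and 11.2 in the si-Ctrl list. Translation termination, cap and poly(A) binding genes had a peak at 3 of 4, led by ETF1, the release factor that reads stop codons, with a −log10 q of 280 in the si-CHAF1A list and 222 in the si-Ctrl list, and then GSPT1, its GTPase partner, with 41.6 in the si-CHAF1A list and 42.2 in the si-Ctrl list. The other decay factors had one at 10 of 10, led by the ATPase gene RUVBL2 with 118 in the si-CHAF1A list and 99.9 in the si-Ctrl list. Next were ICE1 with 65.7 in the si-CHAF1A list and 39.8 in the si-Ctrl list, and the helicase gene DHX34 with 47.1 in the si-CHAF1A list and 65.9 in the si-Ctrl list. Decapping and decay genes had one at 10 of 10, with PARN, a deadenylase, at 56.6 in the si-CHAF1A list and 66.8 in the si-Ctrl list, and DCP2, the decapping enzyme, at 56.5 in the si-CHAF1A list and 87.9 in the si-Ctrl list. Known substrates of the pathway had one at 11 of 12, led by TBL2 with 139 in the si-CHAF1A list and 315 in the si-Ctrl list, followed by UPP1 with 103 in the si-CHAF1A list and 92.3 in the si-Ctrl list, and HNRNPA2B1 with 95.4 in the si-CHAF1A list and 106 in the si-Ctrl list. In no list did a gene have a 5′-end peak in 1 condition only.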

How the data were processed

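The 2 deposited peak lists, 1 per group of 2 samples, hold CHAF1A CUT&Tag peaks of RBE cells. In the sources used here, sample pooling and any control library are not given. The submitters' processing notes name MACS2 2.1.2, Bowtie2 2.2.5, deepTools 3.4.3, fastp 0.20.1 and the build hg38. The authors deposited fold enrichment as a linear ratio, p and q as −log10 values, a whole-number score (not used) and summit offsets from the peak start. The lowest deposited −log10 p was 5.00. On other sequences 886 si-CHAF1A and 868 si-Ctrl peaks were left out.

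The members, lists and motifs were chosen with earlier results of these data known. TCTCGCGA and CTCGCGAG were added after the member sequences had been seen. The other 8 motifs belong to the plan. The text names all 9 members with their peaks (for over 6 in a gene and list, the strongest 3, those at the 5′ end and the range of the rest), neighbours starting within 1 kb of a 5′-end peak, the 2 strongest genes of each wider list with those lacking a peak, and the 5 genes (with ties) closest to UPF3A by summed rank difference. PAQR6, GLMP and ARL6IP1, named outside this rule, start within 1 kb of other member peaks.

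Pileup and background were solved from (pileup + 1)/(background + 1) and the Poisson tail, and 99.98% of pileups in each list came out whole within 0.02 fragments. The most frequent background was taken as that of the genome. The solving step and the overlap calls were checked on simulated data, and the choice of the genome background was not. Gene positions, starts and promoter windows came from RefSeq tables of GRCh38.p14, matched by symbol (9 of 9 genes, 8 with a start). No genome, exon or expression data were used. A 5′-end peak lies within 1 kb of a start, and peaks sharing at least 1 base overlap. Intervals are 95% exact binomial (Clopper-Pearson) or exact Poisson and cover counting error only. Alternatives were stricter q limits, lists of equal length, depth scaling, other windows and overlap. Computation used scipy 1.17.1, pandas 2.3.3, numpy 2.4.6 and matplotlib 3.10.9 under Python 3.11.15. Another marker list is not reported here.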

Additional observations from a re-analysis of the deposited data

How the results depend on the processing

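Of 76 recomputed values, 70 kept their size within the limits set (1.5 times a count, the counting interval of a share), 6 moved and 0 reversed. With −log10 q of at least 10, the member windows held 26 si-CHAF1A peaks and 21 si-Ctrl peaks, in place of 49 and 44. At that limit 9 members (si-CHAF1A) and 7 members (si-Ctrl) had one, and a 5′-end peak remained in 7 of 8 in each list. The share of all genes at that limit is not given here. With 50% reciprocal overlap, 36.7% of si-CHAF1A and 40.9% of si-Ctrl member peaks were shared, in place of 59.2% and 72.7%. With CTCGCGAG in place of TCTCGCGA, 56.0% of the strongest 100 5′ ends held the motif in each list, in place of 74.0% (si-CHAF1A) and 71.0% (si-Ctrl); the motif and its alternatives were chosen after seeing the data. Scaling the si-CHAF1A list to the si-Ctrl background kept 90197 of its 97653 peaks. No paired analysis was possible because the deposited lists do not separate the samples, and for the same reason no sample could be left out in turn. Depth limits the weak member peaks, the lowest of which had 25 fragments at the summit in the si-CHAF1A list and 21 in the si-Ctrl list.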
